A study of Mus musculus with 2 samples.

Results

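The S100, annexin and galectin genes of the mouse were examined in RNA that co-precipitated with nucleolin. Members were all gene symbols of the deposited table that start with S100a, Anxa or Lgals followed by a digit, which gave 36 of 23924 symbols: 14 S100, 12 annexin and 10 galectin symbols. Lgals3bp is taken in by its symbol but encodes a galectin-3-binding glycoprotein and not a galectin. Both libraries came from RAW 264.7 macrophages, a mouse cell line, in which mRrp6 (a ribonuclease of the nuclear exosome, gene Exosc10) had been depleted and which had been exposed to LPS (lipopolysaccharide, 80 ng/ml) for 12 h. Nuclear extracts were precipitated with an antibody against nucleolin, an RNA-binding protein of the nucleolus, or with rabbit IgG as the background. Each antibody gave 1 library, both from depleted and stimulated cells, so no difference has a replicate check, no test was possible, and the effects of depletion and of LPS cannot be read from them. Nothing in the labels says how many cultures were pooled. One sample is titled as IgG control and the other as nucleoplasmic RNA; the second is called the nucleolin library here, since the series describes such RNA as recovered with that antibody and its value column carries the nucleolin symbol. Below, "with nucleolin" and "with IgG" stand for the library of that antibody.

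S100 proteins are small calcium-binding proteins with paired EF-hand motifs that change shape on binding calcium and then dock onto partner proteins. Annexins bind acidic phospholipids in a calcium-dependent way and work in membrane traffic, repair and the handling of dying cells, some of them in a complex with an S100 protein. Galectins bind beta-galactoside sugars on glycoproteins and act both outside the cell and at damaged membranes inside it. Macrophages are a known source of several members, among them S100a4, S100a8, S100a9, Anxa1 and Lgals3. Other members are mainly known from epithelia, such as S100a14, Anxa10 of the gastric mucosa, Lgals2 of the gut, and Lgals7 of stratified epithelium.

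Values are FPKM, fragments per kilobase of transcript, scaled to the mapped fragments of the library, with the transcript rows of a symbol summed. Genes of 1 FPKM or more in either library were compared, and a gene was called listed in a library from 0.1 FPKM. The difference is log2((nucleolin FPKM + 1) / (IgG FPKM + 1)), which understates the change of low genes, and a ratio against a value listed at 0 depends on the added 1 and is no fold. Depth was very low in both libraries. Of 246 low genes listed in both libraries with a single transcript row, 157 (63.8%) shared a nucleolin-to-IgG ratio of 0.393. Equal numbers of reads, such as 1 and 1, give that ratio. A read was therefore worth 2.54 times more FPKM in the IgG library, and a gene at equal reads has a median log2 ratio of -1.23. Within a tolerance of 0.05 on the log2 scale, such genes reached at most 70.3 FPKM with nucleolin and 178 FPKM with IgG.

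Of the 36 members 17 were measured, and the other 19 were listed at 0 in both libraries. Most measured members were on the IgG side. With nucleolin, 4 were higher by 2-fold or more, as were 37.8% of the 3194 genes compared, and 13 were lower by 2-fold or more, as were 56.7% of all genes. The members' shares were 23.5% higher and 76.5% lower. All 17 measured members were above 10 FPKM in 1 of the libraries, and of the 2034 genes that reached 10 FPKM, 22.0% were higher and 70.7% lower, so the members' shares were near those of genes at such levels. The 4 higher genes were S100a11, S100a13, Lgals3 and Lgals3bp, all listed in the nucleolin library only (against 37.1% of all genes compared). Another 11 members had values with IgG alone (against 46.0% of all genes compared), and Anxa2 and Anxa5 were listed in both (against 16.8% of all genes compared). The median log2 ratio of the measured members was -5.04, against -1.27 over all genes compared. These medians are not at like levels, since genes below 10 FPKM enter only the second and a ratio against 0 grows with the level. With all ratios centred on that median, 4 members were higher (against 40.2% of all genes compared) and 11 lower (against 46.5%). Over all 36 members the summed level was 263 FPKM with nucleolin and 1137 FPKM with IgG, 4.32 times more in the IgG library. All genes other than the dominant Rn45s, Lars2, Mir6236 and Mir142b together had 2.71 times more FPKM in the IgG library, and the members took 0.732% of that sum with nucleolin and 1.16% with IgG.

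**Figure D1:**
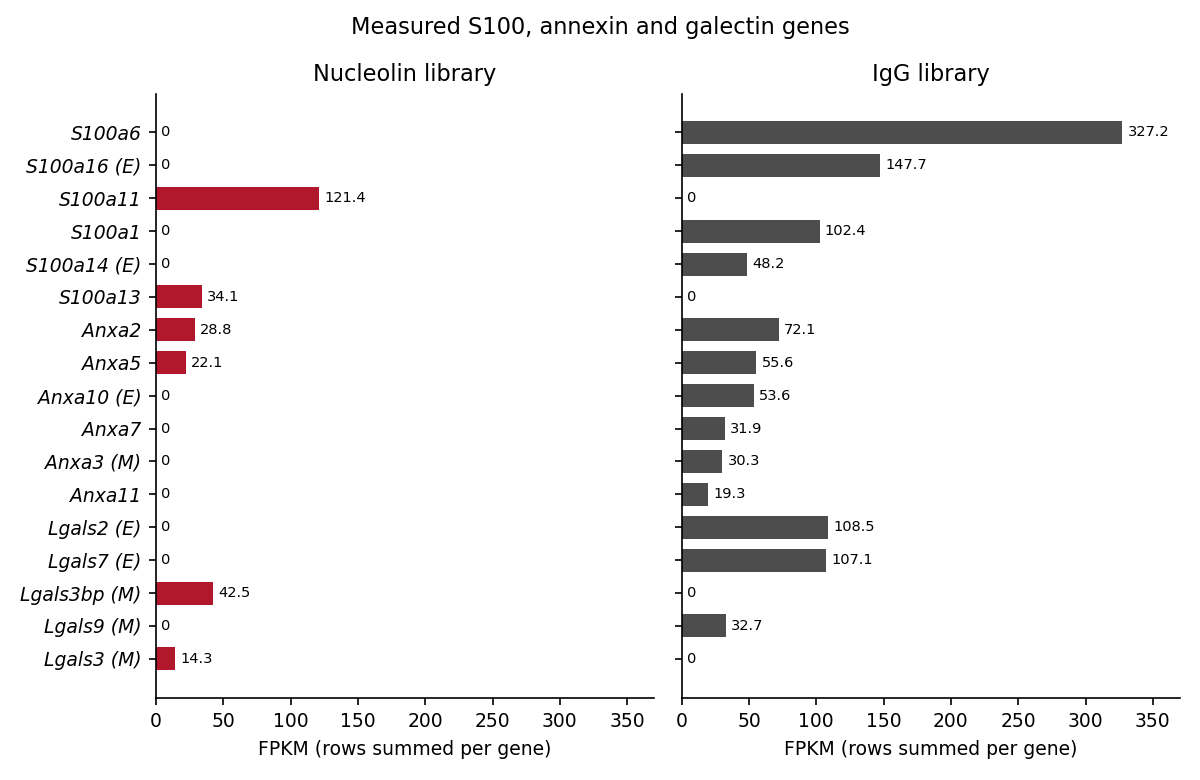
FPKM of the 17 measured members in the nucleolin library (left) and the IgG library (right), 1 bar per gene with its value, on the same axis; (E) marks members known mainly from epithelia and (M) members known from myeloid cells. Bars stand on both sides for Anxa2 and Anxa5, and for every other member 1 of the sides is at 0.

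Levels varied widely among members of the same library. S100a6 ranked 32nd among the 2009 genes listed in the IgG library and S100a11 ranked 41st among the 1729 genes listed in the nucleolin library, while Anxa11 ranked 960th in the IgG library and Lgals3 464th in the nucleolin library. Each of the 4 members listed in the nucleolin library only was above the median of all such genes (7.33 FPKM), and each of the 11 members listed in the IgG library only was above the corresponding median (17.5 FPKM). Most of these levels are nevertheless within the range in which other genes stood at equal reads. At the tolerance of 0.05 on the log2 scale, the exceptions were S100a11 with nucleolin and S100a6 with IgG. Among genes with 1 transcript row, Hspa8 alone sets the top of that range. The next such gene at equal reads, Rpl27a, was at 37.4 FPKM with nucleolin and 92.9 FPKM with IgG. Lgals3bp with nucleolin and S100a16, Lgals2, Lgals7 and S100a1 with IgG lay between the levels of Rpl27a and Hspa8. Some genes with 1 transcript row a little outside the tolerance stood above Hspa8. Among them were Tpt1 (74.7 FPKM with nucleolin, 183 FPKM with IgG) and Rps18 (113 FPKM with nucleolin, 263 FPKM with IgG). The top of the range therefore depends on the tolerance, and a level above it does not give a read number. The 157 low genes at equal reads had medians of 6.76 FPKM with nucleolin and 17.2 FPKM with IgG, and equal reads need not be few. FPKM divides by transcript length, so a single read on a short transcript gives a high value. Transcript lengths were not used here, and read numbers of members listed in 1 library could not be recovered.

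The S100 genes included the highest member of each library. S100a11 (calgizzarin, a partner of annexin A1) was at 121 FPKM with nucleolin and at 0 with IgG, a log2 ratio of 6.94. It made up 78.0% of the summed S100 level of the nucleolin library. S100a13, which takes part in the release of proteins that lack a signal peptide, was at 34.1 FPKM with nucleolin and at 0 with IgG. These were the 2 S100 genes of the nucleolin library, and neither is restricted to macrophages. S100a6 (calcyclin, a widely expressed S100 protein tied to proliferating cells) was at 0 with nucleolin and at 327 FPKM with IgG, a log2 ratio of -8.36 and 52.3% of the summed S100 level of the IgG library.

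The remaining measured S100 genes were S100a16, S100a1 and S100a14, all listed in the IgG library only. S100a16, a calcium-binding protein prominent in epithelia but also found elsewhere, was at 0 with nucleolin and at 148 FPKM with IgG. S100a1, best known from heart and skeletal muscle, was at 0 with nucleolin and at 102 FPKM with IgG. S100a14, an epithelial S100 protein, was at 0 with nucleolin and at 48.2 FPKM with IgG. Over the 14 S100 genes the summed level was 156 FPKM with nucleolin and 626 FPKM with IgG. Leaving aside the largest gene of each library, the sums were 34.1 FPKM without S100a11 in the nucleolin library and 298 FPKM without S100a6 in the IgG library.

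S100a8 and S100a9, the subunits of calprotectin, which neutrophils and monocytes make in large amounts, were listed at 0 in both libraries. So was S100a4 (metastasin), known from macrophages and fibroblasts, and S100a10, the light chain of the complex with annexin A2. S100a2, S100a3, S100a5 and S100a7a were at 0 as well. At this depth a value of 0 does not show that a transcript was absent from the precipitate.

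All 14 S100 genes lie on chromosome 3, 12 of them in a cluster that runs from the start of S100a1 at 90511034 to the end of S100a9 at 90695721 (RefSeq, assembly GRCm38.p6, which mm10 stands for). S100a11 (93520496 to 93526288) and S100a10 follow about 2825 kb further along. Of the measured genes of the cluster, 4 had values with IgG alone (against 46.0% of all genes compared). The remaining 1, S100a13, had its value with nucleolin alone (against 37.1%). The first 4 genes in order were S100a1 (IgG library), S100a13 (nucleolin library), S100a14 (IgG library) and S100a16 (IgG library). Then 4 genes were at 0 in both libraries, followed by S100a6 (90612894 to 90614414, IgG library) and by S100a7a, S100a8 and S100a9, again at 0 in both.

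**Figure D2:**
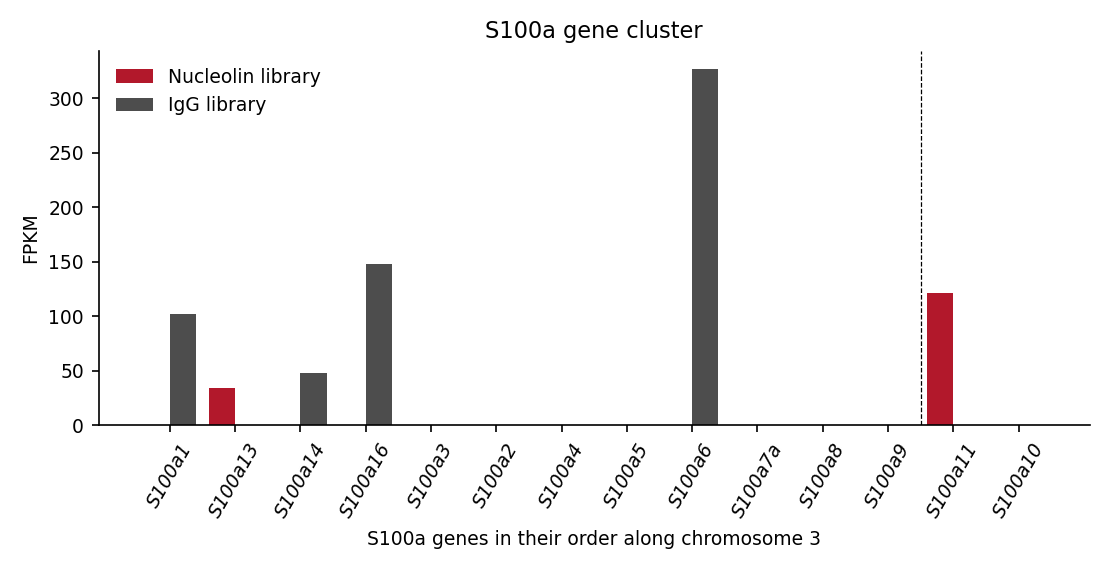
FPKM (vertical axis) of the 14 S100a genes in their order along chromosome 3, with the nucleolin library as the left and the IgG library as the right bar of each gene; the dashed line marks the gap of about 2825 kb, and distances are not to scale. No S100a gene has a bar in both libraries (16.8% of all genes compared were listed in both), and the neighbours S100a1 and S100a13 have theirs in different ones.

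Among the measured S100 genes, S100a1 and S100a13 are the closest pair, and they were listed in different libraries. By the starts of the RefSeq promoter table they face away from each other across a short stretch. The genes S100a2 and S100a3, at 0 in both libraries, lie closer, with an overlap of 1262 bases. S100a1 (90511034 to 90514330) runs on the minus strand and S100a13 (90514233 to 90524581) on the plus strand, and the annotated spans overlap by 98 bases. The bases between the S100a1 start and the S100a13 start of the RefSeq promoter table are shown because the 2 starts lie so close. The annotated span of S100a13 begins earlier, at 90514233, so the stretch lies upstream of S100a1 and of that S100a13 start but also inside the S100a13 span. It is chr3:90514330-90514435 on the plus strand, 106 bases with both start bases in capitals.
S100a1-S100a13: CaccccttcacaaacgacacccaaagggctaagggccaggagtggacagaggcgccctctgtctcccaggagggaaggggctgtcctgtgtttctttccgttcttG
The stretch has 59.4% G and C and 3 CpG steps. It holds no TATAA on either strand, and 10.6% of 32851 RefSeq promoter windows hold one in the same 106 bases up to and including the start. Without a statement on strand in the sources used here, reads in the 98 shared bases cannot be assigned to one of the genes, so the values of S100a1 and S100a13 are uncertain to that extent.

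All 6 measured annexins were lower with nucleolin as deposited (against 56.7% of all genes compared), 2 of them (Anxa2 and Anxa5) only by the ratio of equal reads, and the only members listed in both libraries belonged to this family. Anxa2, which links membranes to actin and forms a complex with S100a10, was at 28.8 FPKM with nucleolin and 72.1 FPKM with IgG. Anxa5, which binds phosphatidylserine on dying cells, was at 22.1 FPKM with nucleolin and 55.6 FPKM with IgG. On the same assembly Anxa2 lies on chromosome 9 (69453683 to 69491792) and Anxa5 on chromosome 3 (36448923 to 36475887), outside the S100 cluster. Each had a log2 ratio of -1.29, so both pass the 2-fold limit as deposited.

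The ratios of Anxa2 and Anxa5 were those of equal reads. The FPKM ratio was 0.399 for Anxa2 and 0.397 for Anxa5, against 0.393 for equal reads, and both were within the tolerance of 0.05 on the log2 scale. Anxa2 was above the limit of 60 FPKM with IgG that was set for the low genes from which that ratio was taken. At 1 read in each library, the exact (Clopper-Pearson) 95% interval of the ratio runs from 0.00501 to 30.9. This is the widest interval, since the read numbers may be a multiple of that pair, and it covers counting error only. Among the 369 genes with 1 transcript row listed in both libraries, 161 stood at this ratio. With 1 read set equal in both libraries, the log2 ratios of Anxa2 and Anxa5 became 0.02 and 0.01.

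**Figure D3:**
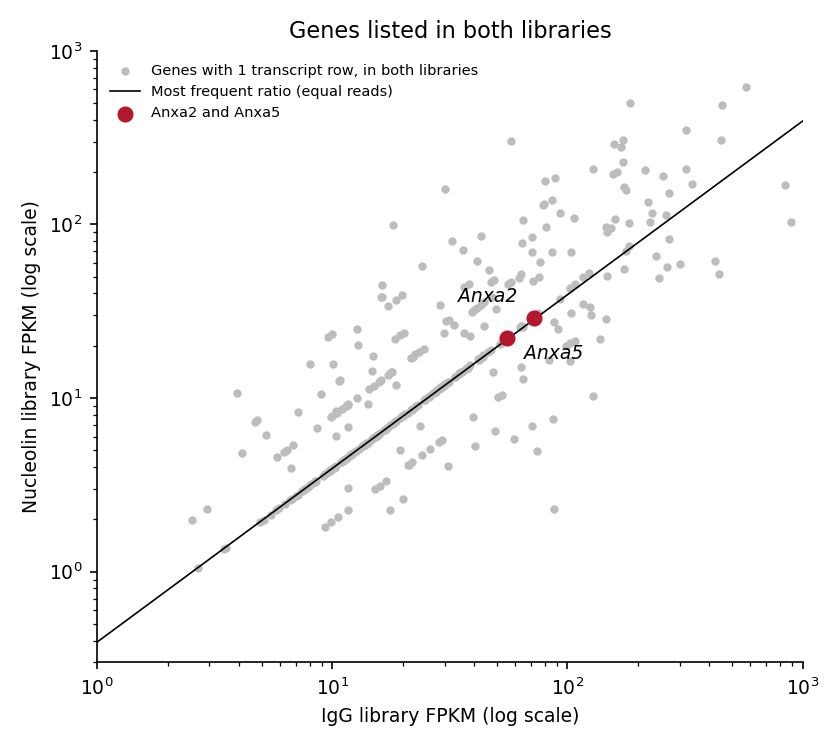
FPKM in the nucleolin library (vertical axis) against the IgG library (horizontal axis), both on log scales, for genes with 1 transcript row listed in both libraries (grey); the line is the most frequent ratio, 0.393. Anxa2 and Anxa5 (red) lie on the line, and the highest genes of the table are outside the axes.

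The 4 other measured annexins had values with IgG alone. Anxa10, known from the gastric mucosa, was at 0 with nucleolin and at 53.6 FPKM with IgG, the highest of the 4. Anxa7 (synexin, a membrane-fusion annexin) was at 0 with nucleolin and at 31.9 FPKM with IgG. Anxa3, found in neutrophils and monocytes among other cells, was at 0 with nucleolin and at 30.3 FPKM with IgG.
Anxa11, an annexin that tethers RNA granules to lysosomes, was at 0 with nucleolin and at 19.3 FPKM with IgG, near the median of 17.5 FPKM over all genes listed with IgG alone. Over the 12 annexin genes the summed level was 50.9 FPKM with nucleolin and 263 FPKM with IgG. Listed at 0 in both libraries were Anxa1, a mediator that limits inflammation and is abundant in myeloid cells, and Anxa4, Anxa6, Anxa8, Anxa9 and Anxa13.

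The galectin symbols divided between the libraries, with none of the 5 measured genes in both (against 16.8% of all genes compared). Lgals3bp, a secreted glycoprotein that binds galectin-3, was at 42.5 FPKM with nucleolin and at 0 with IgG, a log2 ratio of 5.44. Lgals3 (galectin-3, long used as the macrophage antigen Mac-2) was at 14.3 FPKM with nucleolin and at 0 with IgG, a log2 ratio of 3.94. Lgals3bp lies on chromosome 11 (118392747 to 118401959) and Lgals3 on chromosome 14 (47373860 to 47386167). Transcripts of the lectin and of its binding protein were both listed in the nucleolin library only, as were 37.1% of all genes compared. Other genes at equal reads reached the level of Lgals3. Of those with 1 transcript row within the tolerance, only Hspa8 (70.3 FPKM with nucleolin) reached the level of Lgals3bp. Genes a little outside the tolerance, such as Tpt1 (74.7 FPKM with nucleolin), reached it as well.

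The galectins of the IgG library were Lgals2, Lgals7 and Lgals9. Lgals2, a galectin of the gastrointestinal tract, was at 0 with nucleolin and at 108 FPKM with IgG. Lgals7, a galectin of stratified epithelium, was at 0 with nucleolin and at 107 FPKM with IgG. Lgals9, a ligand of the T cell surface protein Tim-3 that macrophages and other cells make, was at 0 with nucleolin and at 32.7 FPKM with IgG.
Over the 10 galectin symbols the summed level was 56.8 FPKM with nucleolin and 248 FPKM with IgG. Lgals1, the widely expressed prototype galectin, Lgals4 and Lgals6 of the gut, Lgals8, which marks damaged endosomes, and Lgals12 of fat cells were at 0 in both libraries. The end of Lgals2 overlaps Cdc42ep1 by 43 bases of the annotation, and that gene was also listed in the IgG library only (18.1 FPKM).

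**Figure D4:**
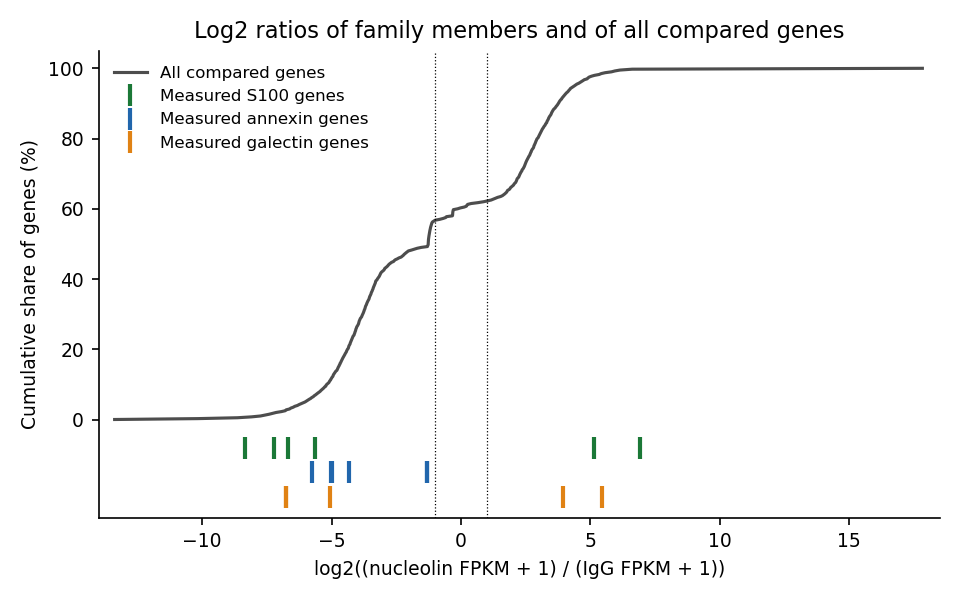
Cumulative share of the 3194 compared genes (vertical axis, %) by log2 ratio of nucleolin over IgG (horizontal axis), with a tick for each measured S100, annexin and galectin gene below the curve; dotted lines mark 2-fold. No member lies within 2-fold, the annexin ticks are all on the left, and the S100 and galectin ticks fall on both sides.

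Of the 10 members with several transcript rows, 5 were measured, and in each a single row held nearly all of the level, between 96.9% and 99.8%. In S100a14 the leading row was at 46.8 FPKM and a further one at 1.48 FPKM, both in the IgG library. The rows of Anxa10, Anxa7 and Lgals9 in the IgG library and of Lgals3 in the nucleolin library were divided in a like way, with 0.284 FPKM or less outside the leading row. Pseudogene copies add a further uncertainty. RefSeq annotates a pseudogene of S100a11 on chromosome 12 and one of Lgals1 on chromosome 17, and how reads shared with such copies were assigned is not stated.

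Grouped by their main known source, the epithelial members stood in the IgG library. Of 12 such members 5 were measured (S100a16, Lgals2, Lgals7, Anxa10 and S100a14), all at 0 with nucleolin (46.0% of all genes compared were below 0.1 FPKM there) and between 48.2 and 148 FPKM with IgG. They summed to 465 FPKM there, 40.9% of the members' total. S100a3, S100a7a, Anxa8, Anxa9, Anxa13, Lgals4 and Lgals6 were at 0 in both.
Of 8 myeloid members 4 were measured. Lgals3bp and Lgals3 were in the nucleolin library only (against 37.1% of all genes compared). Lgals9 and Anxa3 were in the IgG library only (against 46.0%). The myeloid sums were 56.8 FPKM with nucleolin and 63.0 FPKM with IgG. The other myeloid members, S100a8, S100a9, S100a4 and Anxa1, were at 0 in both.
The 16 members that are broadly expressed or belong to other tissues had 8 measured genes, 2 higher (against 37.8% of all genes compared) and 6 lower (against 56.7%), and summed to 206 FPKM with nucleolin and 609 FPKM with IgG. Leaving aside the epithelial members, 12 were measured, 4 of them higher and 8 lower, again beside 37.8% and 56.7% of all genes compared. Their sum was 263 FPKM with nucleolin, of which S100a11 gave 121 FPKM, and 672 FPKM with IgG, of which S100a6 gave 327 FPKM. The assignment to sources is textbook background, and few of these genes are confined to 1 cell type. Both libraries are bulk precipitates labelled as from 1 cell line and differ by antibody. In such libraries the antibody, the presence of cells or RNA of a type, and the RNA per cell cannot be told apart.

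**Figure D5:**
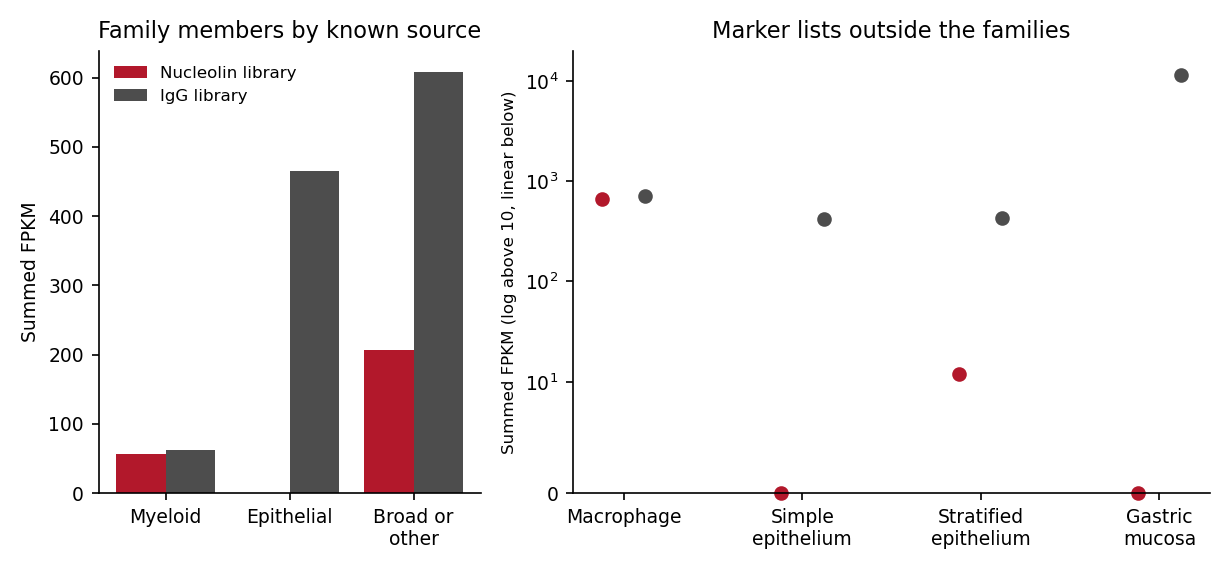
Left, summed FPKM (linear axis) of all myeloid, epithelial, and broadly expressed or other members in the nucleolin library (red, left bar) and the IgG library (grey, right bar). Right, summed FPKM (log axis above 10, linear below) of marker lists outside the families in the same order; epithelial members sum to 0 FPKM with nucleolin and 465 FPKM with IgG, and gastric markers to 0 FPKM with nucleolin and 11574 FPKM with IgG.

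Markers of cell types outside the families differed between the libraries as well. Of 12 macrophage markers 10 were measured, 5 higher (against 37.8% of all genes compared) and 2 lower (against 56.7%) with nucleolin. The 5 higher ones were Lyz2 (200 FPKM with nucleolin), Csf1r, Itgam, Fcgr1 and Msr1, all at 0 with IgG (37.1% of all genes compared were listed in the nucleolin library only). The other 5 measured markers were listed in both libraries (against 16.8%), so some markers of the labelled cell type were present in both. The list summed to 669 FPKM with nucleolin and 705 FPKM with IgG, where a read was worth 2.54 times more FPKM. Adgre1 (listed as Emr1) and Mrc1 were at 0 in both. Of 6 simple-epithelium markers none was above 0 with nucleolin and 4 were with IgG (46.0% of all genes compared were listed in the IgG library only). Their sums were 0 FPKM with nucleolin and 419 FPKM with IgG, while Epcam and Cldn4 were at 0 in both.
Of 6 stratified-epithelium markers 4 were measured, with sums of 11.9 FPKM with nucleolin and 430 FPKM with IgG. Krt10 and Krt1, keratins of the upper epidermis, were at 0 with nucleolin and at 201 and 169 FPKM with IgG, beside Lgals7. Sfn was the exception, at the ratio of equal reads (11.9 FPKM with nucleolin and 30.0 FPKM with IgG), and Krt5 and Krt6a were at 0 in both.
All 6 gastric markers were listed in the IgG library only (against 46.0% of all genes compared). They were at 0 in the nucleolin library and summed to 11574 FPKM in the IgG library, beside Anxa10 and Lgals2. No marker of the intestine list (4 genes) or of the neutrophil list (5 genes in the table) was above 0 in either library. The part of such cells or RNA in the members' values was not tested.

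Genes that work with the families gave a mixed picture. Of 32 receptors, partners and relatives that are not members 12 were measured; with nucleolin, 5 were higher (against 37.8% of all genes compared) and 6 lower (against 56.7%) by 2-fold or more, and their median log2 ratio was -0.77. Among those listed in the nucleolin library only were Cd36 (a scavenger receptor, 15.6 FPKM), Lamp2 (a lysosomal membrane glycoprotein, 10.6 FPKM), Tsg101 (10.3 FPKM) and Tlr4, the LPS receptor that calprotectin also engages (4.55 FPKM).
Lamp1, a galectin-3 ligand of lysosomes, was at 16.3 FPKM with nucleolin and 103 FPKM with IgG. Plaur, the urokinase receptor, was at 14.1 FPKM with nucleolin and 35.4 FPKM with IgG, the ratio of equal reads. Slc3a2, a galectin-3 ligand with 2 transcript rows, was at 7.02 FPKM with nucleolin and 17.8 FPKM with IgG.
Pdcd6ip (Alix) was at 5.74 FPKM with nucleolin and 7.34 FPKM with IgG, and Ahnak, the giant scaffold of the annexin A2 and S100a10 complex, at 0.919 FPKM with nucleolin and 7.08 FPKM with IgG. Tgm2, a transglutaminase, was at 0 with nucleolin and at 12.6 FPKM with IgG. The receptors of annexin A1 (Fpr1 and Fpr2), the S100 receptor Ager and the galectin-9 receptor Havcr2 were at 0 in both libraries, as were S100b, S100g and S100z.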

How the data were processed

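The deposited table holds FPKM values for 33529 RefSeq transcripts in both libraries. The genome build mm10, Trimmomatic 0.32 and FastQC 0.10.0 are named per the submitters' processing notes. Which aligner and quantification tool the authors used, and how they treated strand and multiply aligned reads, is not given in the sources used here. In 56 rows no symbol was given, and these were left out. Rows were summed per symbol. Gene identifiers of 35 of 36 members matched the RefSeq table of GRCm38.p6; Lgals6 did not.

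The computations used scipy 1.17.1, numpy 2.4.6 and pandas 2.3.3 under Python 3.11.15, with matplotlib 3.10.9 for figures. With 1 library per group no test was made. The ratio of equal reads was the most frequent ratio of low genes (under 30 FPKM in the nucleolin and 60 FPKM in the IgG library, limits set after seeing the data), found in a window of 0.1 on the log2 scale. Pairs of at most 8 reads were matched within 0.05. The fold calls were tested on simulated libraries much deeper than these and with a smaller pseudocount, so not at the settings used here. The read pairs were tested on simulated shallow libraries in which FPKM was exactly proportional to reads over length. The members and lists were chosen with earlier results of these data known. Genes named with values are every measured member, measured partners (some are not reported here), and of the markers the list sums with those that reach 1 FPKM. Alternatives were another pseudocount, other minimums, the highest row, centring and rescaling by the worth of 1 read.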

Additional observations from a re-analysis of the deposited data

How the results depend on the processing

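No paired analysis was possible because each group has 1 library. The counts of 4 higher and 13 lower members were the same with a pseudocount of 0.1, a minimum of 10 FPKM, no minimum, or the highest row per symbol. With ratios centred on all genes, 4 were higher (against 40.2% of all genes compared) and 11 lower (against 46.5%). With 1 read set equal, the members' counts were again 4 and 11, beside 1293 higher and 1499 lower of the 3194 genes compared. The median log2 ratio of members (-5.04) became -8.32 with a pseudocount of 0.1 and -3.77 after centring. The log2 ratios of the summed levels (S100 -2.00, annexin -2.35, galectin -2.11) became -0.73, -1.08 and -0.84 after centring and -0.66, -1.02 and -0.78 with 1 read set equal. The ratios of Anxa2 and Anxa5 reversed with 1 read set equal, to 0.022 and 0.013. Over all genes, a minimum of 10 FPKM left 2034 genes, 448 (22.0%) higher and 1439 (70.7%) lower, against 1206 and 1812 of 3194. Depth limits all of these, since most values may rest on very few reads.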
